A study of Arabidopsis thaliana with 6 samples.

Results

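*COR47* (AT1G20440), *COR15A* (AT2G42540), *COR15B* (AT2G42530) and *LTI30* (AT3G50970) are marker genes of the cold response, and their transcript levels were read in *Arabidopsis* seedlings kept in the cold, in wild type (WT) and in the *fbs1-1* line. The genes were chosen by name for their place in the CBF regulon, with earlier results of these data known. Each is read by 1 probe set, which the platform annotation ties to no other gene. Together they are 4 of the 13356 genes with at least 1 probe set that this annotation ties to no other gene.

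C-repeat Binding Factors (CBFs) are transcription factors that appear within hours of a drop in temperature and bind the CRT/DRE element in the promoters of cold-regulated genes. The products of these target genes protect membranes and proteins when water freezes outside the cell. COR47 and LTI30 are dehydrins, hydrophilic proteins that bind membranes and other proteins as cells lose water, and COR15A and COR15B are small proteins of the chloroplast stroma that stabilize chloroplast membranes during freezing. *COR15B* and *COR15A* are tandem neighbors, with 0 protein-coding loci between them in the RefSeq gene order.

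Whole 12 day-old seedlings gave the RNA for 6 Affymetrix ATH1 arrays (3 WT and 3 *fbs1-1*), each hybridized with a separate pool of seedlings. All 6 pools were grown under 16 h of light for 5 days at 24 °C and then for 7 days at 10 °C. The *fbs1-1* plants carry a transposon in an intron of *FBS1*, which encodes an F-box protein, and they come from 1 insertion line. By the labels both lines are in the No-0 background, but the names of the WT arrays carry Nd0, so that the loss of *FBS1* cannot be told apart from other differences between the lines. Since all 6 arrays come from chilled plants, the values show levels in the cold and not induction by it.

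Values are log2 intensities, on which a difference of 1 is a doubling, and each array had a median between 2.62 and 2.72. Differences between WT and *fbs1-1* were tested with limma, a linear model fitted to each of 22746 probe sets, and a gene passed at a Benjamini-Hochberg adjusted p under 0.05. By this measure 3.25% of all probe sets passed, 1.57% with higher values in WT and 1.68% with higher values in *fbs1-1*. Replicate 1 of WT and of *fbs1-1* are the arrays numbered 43 and 45, and the other 4 are numbered 59 to 62. Expression of *GIGANTEA* (*GI*), a clock gene that peaks late in the day, moved with this number, at 3.15 and 4.35 on arrays 43 and 45 and between 1.64 and 1.68 on the other 4, and its part in the results was not tested. In samples of whole seedlings, fewer cells that express a gene and less of its RNA per cell cannot be told apart.

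All of the cold marker genes were among the brightest probe sets on each array. *COR15A* ranked between 63 and 264 of the 22746 probe sets, and *COR15B* between 74 and 144. *COR47* ranked between 547 and 1280 and *LTI30* between 1039 and 1248. *COR15A* was thus at or above the percentile 98.84 on each array and *COR15B* at or above 99.37, while *COR47* and *LTI30* were at or above 94.37 and 94.51. The *LTI30* values were at least 4.61 above the array median, and those of *COR15B* at least 7.14. Probe sets differ in how brightly they report the same amount of RNA, so that these ranks place signals on the array and do not compare amounts of RNA between genes.

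**Figure D1:**
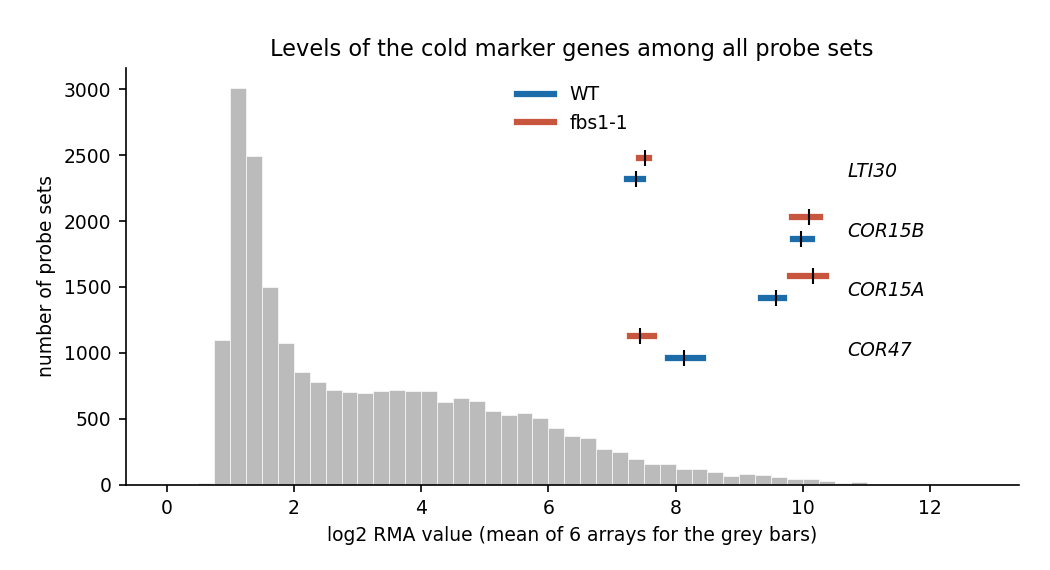
Histogram of the mean log2 RMA value over 6 arrays for all 22746 probe sets (grey bars, 0.25 wide), with the range over 3 arrays (horizontal line) and the mean (black tick) of each cold marker gene in WT and *fbs1-1*. The *COR15A* and *COR15B* ranges lie at the bright end, from 9.34 to 10.4, and those of *COR47* and *LTI30* lie between 7.23 and 8.44; the height of the lines has no meaning.

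The order of the signals was the same on the 3 WT arrays and changed on part of the *fbs1-1* arrays. On each WT array the order was *COR15B*, *COR15A*, *COR47* and *LTI30* from the brightest to the dimmest, and *fbs1-1* replicate 1 had this order too. On *fbs1-1* replicates 2 and 3, *COR15A* stood above *COR15B* and *LTI30* above *COR47*. In *fbs1-1* neither of these neighbors in the order differed beyond their spread, with a within-array difference of 0.06 ± 0.11 (SD, n = 3) for *COR15A* minus *COR15B* and of -0.09 ± 0.17 for *COR47* minus *LTI30*.

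*COR47* was brighter in WT on every array. Its values were 8.44, 7.88 and 8.07 on WT replicates 1, 2 and 3, and 7.66, 7.28 and 7.37 on *fbs1-1* replicates 1, 2 and 3. The lowest WT array was above the highest *fbs1-1* array, as was the case for 8.94% of all probe sets. The means were 8.13 ± 0.28 in WT and 7.44 ± 0.20 in *fbs1-1* (SD, n = 3), so that WT was 1.62-fold above *fbs1-1* (log2 WT minus *fbs1-1* 0.69, standard error 0.16, 95% interval 0.33 to 1.06). This difference did not pass (adjusted p = 0.0596 from limma), nor did it in rank products, where its estimated proportion of false predictions was 0.0681 and 1.17% of all probe sets passed toward WT and 1.15% toward *fbs1-1*. In both genotypes the array of replicate 1 was the highest, by 0.46 in WT and by 0.33 in *fbs1-1* over the mean of the other arrays. The difference passed with the array numbers as a block (adjusted p = 0.00601 from limma) and on arrays 59 to 62 alone, at 0.65 (adjusted p = 0.0377). Between arrays 43 and 45 it was 0.78.

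*COR15A* went the other way, with brighter signals in *fbs1-1*. Its values were 9.71, 9.71 and 9.34 on the WT arrays and 9.79, 10.37 and 10.31 on the *fbs1-1* arrays. The groups did not overlap, with *fbs1-1* higher, as for 10.8% of all probe sets, but *fbs1-1* replicate 1 was only just above WT replicates 1 and 2. The means were 9.58 ± 0.21 in WT and 10.2 ± 0.32 in *fbs1-1* (SD, n = 3), a 1.49-fold higher level in *fbs1-1* (log2 difference WT minus *fbs1-1* -0.57, standard error 0.17, 95% interval -0.97 to -0.18). The difference did not pass (adjusted p = 0.143 from limma), and its proportion of false predictions in rank products was 0.168. It was -0.08 between arrays 43 and 45 and -0.82 on arrays 59 to 62, where it passed (adjusted p = 0.0397 from limma). It also passed without *fbs1-1* replicate 1, at -0.76 (adjusted p = 0.0461).

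*COR15B* and *LTI30* overlapped between the genotypes. *COR15B* was at 10.14, 9.94 and 9.85 on the WT arrays and at 9.82, 10.19 and 10.27 on the *fbs1-1* arrays. *fbs1-1* replicate 1 was the lowest of the 6 and the other *fbs1-1* arrays were the highest. The log2 difference WT minus *fbs1-1* was -0.12 (standard error 0.14, 95% interval -0.44 to 0.20, adjusted p = 0.792 from limma), and it was 0.32 between arrays 43 and 45 and -0.33 on arrays 59 to 62. *LTI30* was the steadiest of the cold marker genes, at 7.23, 7.49 and 7.40 on the WT arrays and 7.55, 7.43 and 7.59 on the *fbs1-1* arrays. Its log2 difference was -0.15 (standard error 0.11, 95% interval -0.39 to 0.09, adjusted p = 0.610 from limma). The intervals leave room for *LTI30* to be higher in *fbs1-1* by up to 0.39, and for *COR15B* by up to 0.44.

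**Figure D2:**
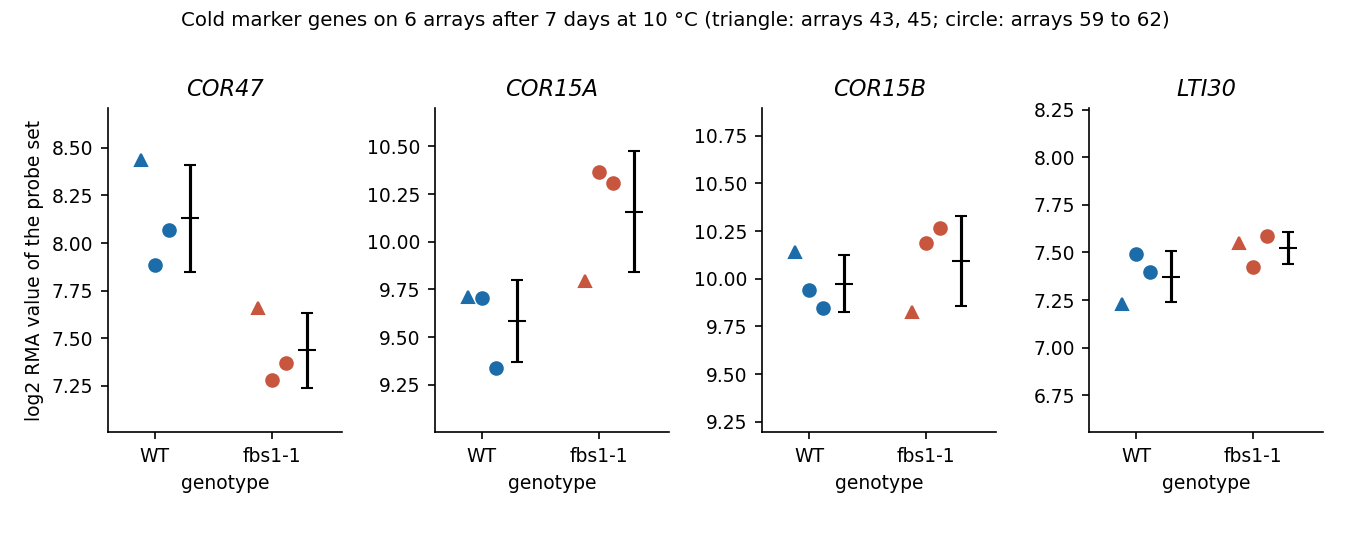
Log2 RMA value of each cold marker gene on the 3 WT and 3 *fbs1-1* arrays (points; triangles for arrays 43 and 45, circles for arrays 59 to 62), with the mean and SD of each genotype in black beside them. All panels span the same number of log2 units: *COR47* is higher on each WT array, *COR15A* on each *fbs1-1* array, and *COR15B* and *LTI30* overlap.

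In all, 0 of the 4 genes passed limma, where 3.25% of all probe sets did, 0 passed rank products, and 2 had an unadjusted p under 0.05, as 14.7% of all probe sets did. The median of the 4 differences was -0.13, against -0.01 over all probe sets, and the genes did not share a direction. The groups did not overlap for 2 of the 4, where this held for 19.7% of all probe sets. Among the 1115 probe sets at least as bright as *LTI30*, the median absolute difference between the genotypes was 0.12. A difference as large as that of *COR47* was reached by 2.96% of these, one as large as that of *COR15A* by 3.95%, and ones as large as those of *LTI30* and *COR15B* by 39.9% and 49.9%.

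The tandem genes *COR15A* and *COR15B* were then set against each other within each array. The brightness of each probe set cancels between the genotypes if it is the same in both lines, which was not tested. *COR15A* minus *COR15B* was -0.43, -0.23 and -0.51 on the WT arrays and -0.03, 0.18 and 0.04 on the *fbs1-1* arrays. The *COR15A* signal lay below that of *COR15B* on each WT array by more than on any *fbs1-1* array, and the groups did not overlap. *COR15A* alone did not overlap either, and how often other pairs of probe sets separate the genotypes was not computed. The ratio of *COR15A* to *COR15B* was 1.37-fold higher in *fbs1-1* (log2 difference WT minus *fbs1-1* -0.46, standard error 0.10, exact two-sided permutation test p = 0.1, n = 3 arrays per genotype). With 3 arrays against 3, 0.1 is the smallest p that this test can give, so that it cannot pass at 0.05. The shift was -0.40 between arrays 43 and 45 and -0.48 on arrays 59 to 62, and it was between -0.54 and -0.40 when any 1 array was left out. Its size within the 2 array sets was thus closer than that of *COR15A* alone.

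The same comparison was made for all 6 pairs of the 4 genes, a choice made after their values had been seen. The largest shift was in *COR47* minus *COR15A*, at -1.27, -1.82 and -1.27 on the WT arrays and -2.13, -3.09 and -2.94 on the *fbs1-1* arrays, a 2.41-fold higher ratio in WT. *COR47* also shifted against *COR15B*, by 1.75-fold, and against *LTI30*, by 1.79-fold, each toward WT and without overlap. For *COR15A* minus *LTI30* the groups overlapped (log2 difference -0.42), and *COR15B* minus *LTI30* differed by 0.03 with a standard error of 0.22. The 4 pairs without overlap had an exact permutation test p of 0.1 and of 0.15 after adjustment over the 6 pairs, and pairs that share a gene are not independent. Each of the 4 holds *COR47* or *COR15A*, which did not overlap between the genotypes on their own either. The share of all pairs of probe sets without overlap was not computed, so that this count has nothing to be set against.

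**Figure D3:**
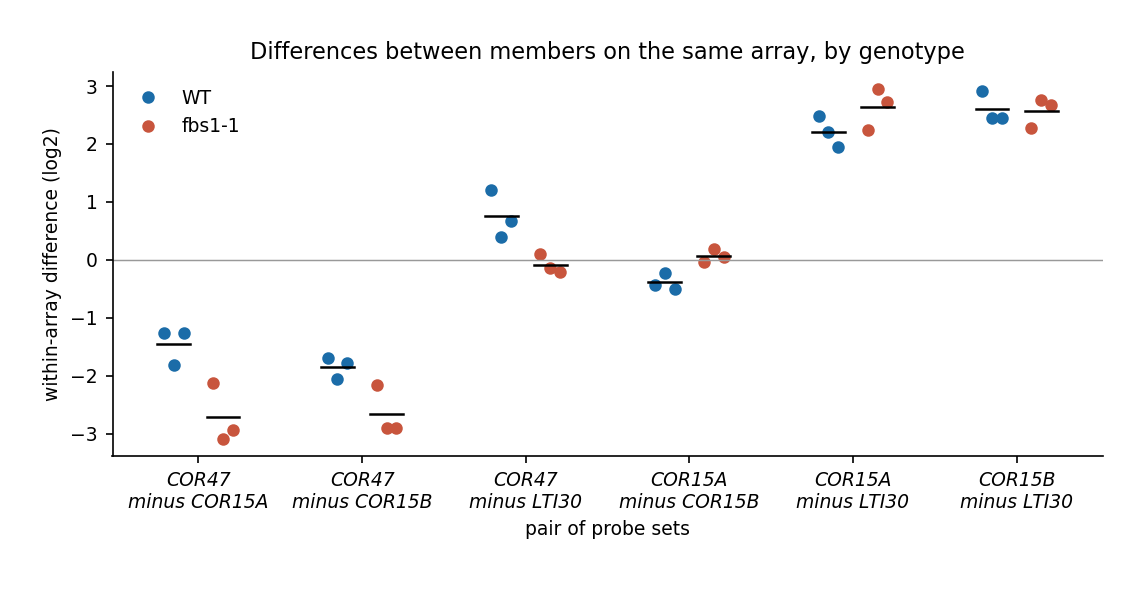
Within-array log2 differences for the 6 pairs of cold marker genes on the 3 WT and 3 *fbs1-1* arrays (points; black lines are means). The pairs with *COR47*, and *COR15A* minus *COR15B*, separate the genotypes, and the other pairs overlap; the height of a pair also depends on the brightness of its probe sets and only the offset between genotypes compares samples.

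Other targets of the CBF regulon were less well covered, since the annotation at hand leaves many probe sets without a name. The probe set that it gives to both *KIN2* and *KIN1*, tandem genes for small hydrophilic cold-induced proteins that cannot be told apart on it, ranked between 71 and 143. Its values were 10.28, 9.98 and 9.85 on the WT arrays and 9.98, 10.13 and 10.12 on the *fbs1-1* arrays, with overlap and a log2 difference of -0.04 (95% interval -0.33 to 0.25, adjusted p = 0.936 from limma). This signal was as bright as those of *COR15A* and *COR15B*. On each of these 3 probe sets the array of replicate 1 was the lowest in *fbs1-1*. In WT it was the highest for *COR15B* and the *KIN* probe set and level with replicate 2 for *COR15A* (9.708 and 9.705), whereas for *COR47* it was the highest in both genotypes. The probe sets of *ERD10*, which lies beside *COR47*, of *XERO1*, which lies beside *LTI30*, and of *RD29A* and *RD29B* are not named, so that no other tandem pair was compared.

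Of 22 further genes listed as CBF regulon or cold-induced targets, 4 have a named probe set, and 1 was higher in WT, 1 was higher in *fbs1-1* and 2 did not pass, where 1.57% and 1.68% of all probe sets were called in these directions. Of the 2 that the annotation itself names, 0 passed limma, 0 passed rank products and 0 had an unadjusted p under 0.05. *ELIP1*, whose early light-induced protein binds chlorophyll under light stress, was at 8.64, 8.09 and 8.57 on the WT arrays and at 9.58, 10.00 and 9.97 on the *fbs1-1* arrays. Its level in *fbs1-1* was 2.67-fold that in WT (limma, adjusted p = 0.00428), and it passed without any 1 array. *SUS1*, a sucrose synthase gene, was at 6.03, 6.22 and 6.14 in WT and at 5.02, 5.56 and 5.26 in *fbs1-1*, which is 1.80-fold higher in WT (adjusted p = 0.0163). *SUS1* lost its call without WT replicate 2, WT replicate 3 or *fbs1-1* replicate 3. Both are named only through the study's lists of genes called different on these same arrays. Their calls, also those without 1 array, and the count are thus not independent evidence of a difference or of its direction. *COR27* and *COR28*, cold-regulated genes that act in the clock, are named by the annotation. They were under 2 on all 6 arrays, below the array medians, and whether they were detected is not known, with log2 differences of -0.03 and 0.10. The median difference over the 4 was 0.03, against -0.01 over all probe sets.

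The dehydrin family, to which *COR47* and *LTI30* belong, has 8 further listed members, of which 4 have a named probe set. None of the 4 passed limma, 0 had an unadjusted p under 0.05 and 0 passed rank products. *HIRD11* (AT1G54410) was the only bright one, at 8.73, 8.97 and 8.84 in WT and 8.66, 9.0 and 8.75 in *fbs1-1*, with overlap and a log2 difference of 0.04 (95% interval -0.23 to 0.31). The dehydrin genes AT2G21490, AT4G38410 and AT4G39130 had values between 0.97 and 2.01. Of the dehydrins with a signal well above 2, *COR47* thus had a difference of 0.69 and *LTI30* and *HIRD11* of -0.15 and 0.04.

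Of 23 genes listed for the CBF genes and their regulators, 3 have a named probe set, and none passed limma or rank products or had an unadjusted p under 0.05. *CBF1*, *CBF2*, *CBF3* and *CBF4* are not among them, so that the regulators of the cold marker genes were not read here. *SIZ1*, a SUMO ligase gene that acts on the CBF activator ICE1, was between 5.48 and 5.66 in WT and between 5.30 and 5.43 in *fbs1-1*, without overlap (log2 difference 0.18, adjusted p = 0.445 from limma). Its dimmer probe set had a difference of -0.17. *EIN3*, a repressor of *CBF* genes in the ethylene pathway, was between 5.89 and 6.05 on all 6 arrays, and the zinc finger gene *ZAT10* between 1.53 and 2.01.

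Genes of the ABA and dehydration response, which share targets with the CBF pathway, were represented by 2 of 13 listed genes, and neither passed limma. Both had an unadjusted p under 0.05, as 14.7% of all probe sets did. Their WT values were near or under 2, where detection is not known. *LEA4-5*, for a late embryogenesis abundant (LEA) protein that protects cells during drying, was at 2.07, 1.75 and 1.88 in WT and at 3.24, 2.45 and 2.0 in *fbs1-1* (adjusted p = 0.299). *LEA7* was at 1.65, 1.81 and 1.76 in WT and at 2.26, 3.44 and 2.20 in *fbs1-1* (adjusted p = 0.175) and is named only through the study's lists. Each had 1 high *fbs1-1* array, replicate 1 for *LEA4-5* and replicate 2 for *LEA7*. In rank products *LEA7* passed toward *fbs1-1*, as 1.15% of all probe sets did, and *LEA4-5* did not. The study's lists were themselves called with rank products on these arrays, so that the call of *LEA7* is not independent evidence. Of 7 listed genes of freezing tolerance outside the CBF regulon, 2 have a named probe set, *PMM* for an enzyme of ascorbate synthesis and *DFR* for one of anthocyanin synthesis. Neither passed limma or rank products or had an unadjusted p under 0.05, with log2 differences of -0.07 and -0.20.

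A further 12 genes carry cold, drought, dehydrin or late embryogenesis in their RefSeq names, a list made after the values had been seen and which holds *COR27*, *LEA4-5*, *HIRD11* and AT2G21490 again. Of these, 1 was higher in WT, where 1.57% of all probe sets were, and 11 did not pass. An unadjusted p under 0.05 was reached by 3 of the 12, as by 14.7% of all probe sets. Of the 12, 5 were below 2 on all 6 arrays, where detection is not known. The median difference of the 12 was -0.08, against -0.01 over all probe sets. The gene that passed was *SRC2*, named after a soybean gene regulated by cold, at 5.79, 6.02 and 5.93 in WT and 5.44, 5.24 and 5.43 in *fbs1-1*. Its level in WT was 1.45-fold that in *fbs1-1* (limma, adjusted p = 0.0323), and it did not pass when any 1 array other than WT replicate 1 was left out (adjusted p between 0.0649 and 0.121). In rank products its proportion of false predictions was 0.161, and 0 of the 12 passed. AT2G44060, for another LEA protein, was higher on each *fbs1-1* array (log2 difference -0.30, adjusted p = 0.192).

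**Figure D4:**
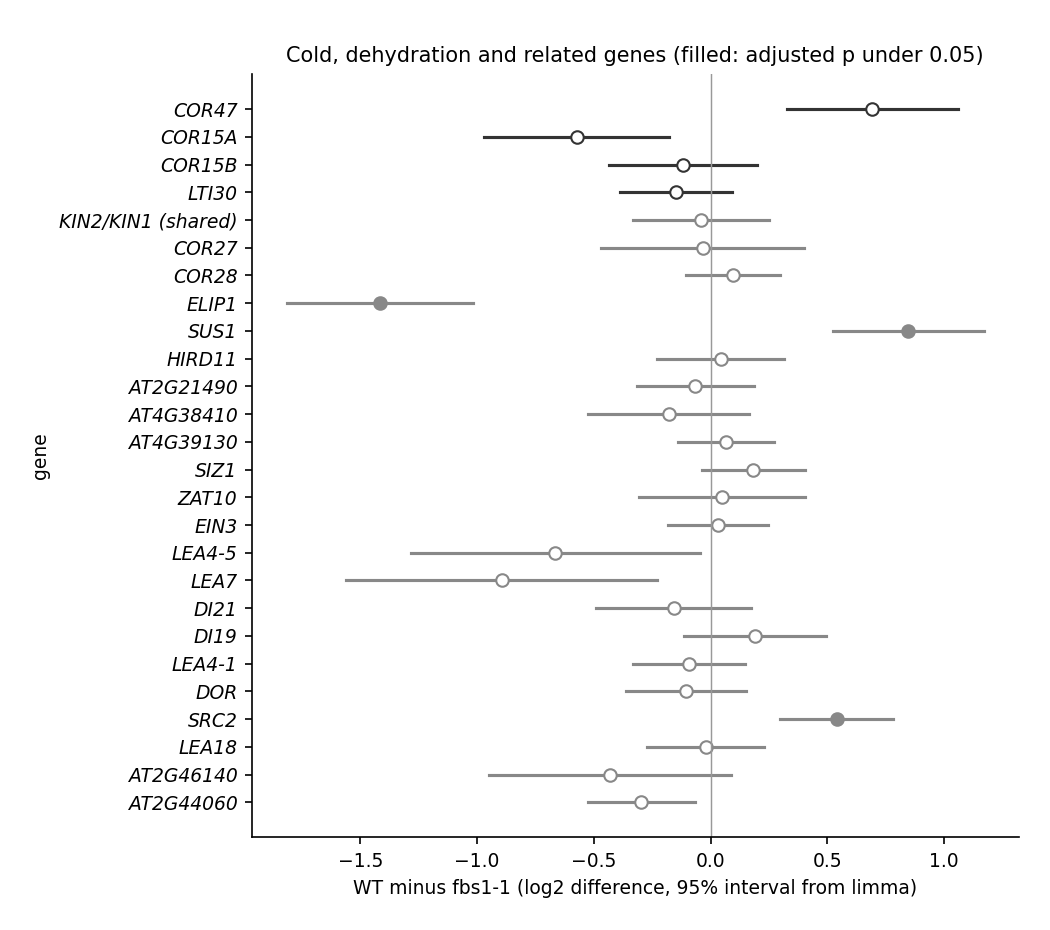
Log2 differences WT minus *fbs1-1* (points) with 95% intervals from limma (lines) for the 4 cold marker genes (dark) and 22 other probe sets of cold, dehydration, CBF regulator and ABA response genes (grey); filled points passed. *ELIP1*, *SUS1* and *SRC2* passed; *ELIP1*, *SUS1* and *LEA7* are named only through the study's lists of called genes.

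Markers of leaf tissue and of seed storage in the lists have no named probe set. *LHCB4.1*, an antenna gene of photosystem II that was looked up after the values had been seen, was at 10.75, 10.69 and 10.64 on the WT arrays and at 10.52, 10.57 and 10.28 on the *fbs1-1* arrays, so that green tissue was present in both genotypes. It was higher on each WT array (log2 difference 0.24, adjusted p = 0.356 from limma), and *LHCB4.2*, a related antenna gene, had a difference of 0.29 with overlap (adjusted p = 0.520). The root hair gene *EXPA7* was between 2.74 and 3.20, higher on each *fbs1-1* array (log2 difference -0.23, adjusted p = 0.377 from limma), and the guard cell gene *FAMA* was between 2.42 and 3.17. *ATML1*, an epidermal transcription factor gene named only through the study's lists, was 1.78-fold higher in WT (adjusted p = 0.0106), between 6.22 and 6.51 against between 5.31 and 5.62. *FAMA* had a log2 difference of 0.135 with overlap (adjusted p = 0.816 from limma). None of the antenna, root hair and guard cell genes passed. *ATML1* was read only because it is on a list of called genes, so that its call is not independent evidence of a difference or of its direction. The part of these tissues in the differences of *COR47* and *COR15A* was not tested.

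The loci around the cold marker genes were read as well, up to 10 protein-coding loci to each side. Of 60 such loci, 28 have a named probe set, of which 1 passed limma, where 3.25% of all probe sets did. Of the 28, 11 did not overlap between the genotypes, against 19.7% of all probe sets. Below 2 on all 6 arrays, where detection is not known, were 12 of the 28. These were 6 of 12 next to *COR47*, 3 of 6 next to *COR15A* and *COR15B* and 3 of 10 next to *LTI30*. Next to *COR47*, 0 of 12 passed limma and 0 passed rank products (1 with an unadjusted p under 0.05), and their differences lay between -0.12 and 0.24. Next to *COR15A* and *COR15B*, 0 of 6 passed either test (3 with an unadjusted p under 0.05, against 14.7% of all probe sets). Of the 6, 5 had the higher mean in *fbs1-1* and 4 did not overlap, against 19.7% of all probe sets. AT2G42480 and AT2G42560, both without overlap, were below 2 on all 6 arrays. *TBL39*, of a family that acetylates cell wall polysaccharides, did not overlap either. Its highest value was 4.07 in WT and its lowest 4.197 in *fbs1-1* (log2 difference -0.56, adjusted p = 0.0815 from limma). AT2G42520, the nearest measured locus on the side of *COR15B*, had a difference of -0.09. Next to *LTI30*, 1 of 10 passed, AT3G50880, 10 loci away, with a difference of 1.12 (adjusted p = 0.000950 from limma).

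For each cold marker gene, the genes with the most similar pattern over the 6 arrays were found by Pearson's r among 7323 probe sets with a name and a signal at or above the 40th percentile. The 3 nearest to *COR47* were AT5G48640, AT2G15580 and AT3G04010 (r = 0.991, 0.990 and 0.989), and their differences were between 0.42 and 0.57. As they were picked for likeness to *COR47* on the same arrays, these differences are not separate evidence. AT3G04010 was between 1.65 and 1.93 in *fbs1-1*. The nearest to *COR15A* was AT4G02610 (r = 0.998), at 2.40, 2.41 and 2.12 in WT and 2.52, 3.05 and 2.98 in *fbs1-1*, followed by AT1G62820 and AT4G14350. *COR15B* was nearest to the RNA-binding protein gene *AtRZ-1b* (r = 0.987), and *LTI30* to AT5G46580 (r = 0.996). An r above 0.95 was reached by 61, 26, 15 and 36 probe sets for *COR47*, *COR15A*, *COR15B* and *LTI30*. With 6 arrays in 2 genotypes and so many probe sets, values this high are a description of likeness and carry no test, and none of the cold marker genes was among the 3 nearest to another.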

How the data were processed

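The authors processed ATH1 arrays with RMA in R and deposited log2 values for 22810 probe sets, not centred per gene; versions are not given in the sources used here. Groups and replicate numbers came from the sample titles. After 64 control probe sets were left out, 22746 were fitted with limma 3.58.1 in R 4.3.3 (genotype as the only term, eBayes, 95% intervals). Rank products, the test of the study's methods, were rewritten in Python 3.11.15 (9 array pairs, 100 permutations, proportion of false predictions under 0.05). Both were tested on simulated data. Exact permutation tests used scipy 1.17.1. The platform annotation names 1 gene for 13513 probe sets, 13436 of them matched to a RefSeq locus of TAIR10.1. Probe sets without annotation (8730) were named, where possible, through the study's lists of called genes, whose fold changes and p-values were not used.

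The cold marker genes and gene lists were chosen with earlier results of these data known. The text names the 4 genes, list members that passed (up to 6 a list) and the brightest that did not (up to 4), and the 3 most alike genes; other names were added after their values were seen. Where probe sets shared a gene, the brightest was used. No read depth exists for arrays, and 3 arrays per genotype limit the precision. Nothing says whether the separate seedling pools were grown at separate times, so that p-values measure the spread between these pools. Alternatives covered scaling, filters, blocks, variance models and leaving out each array.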

Additional observations from a re-analysis of the deposited data

How the results depend on the processing

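*COR47* stayed higher in WT under all alternatives, and its call depended on them. At 0.69 it passed with dim probe sets left out (adjusted p = 0.0488), with a trended robust variance (0.0298) and with the array numbers as a block (0.00601), and at 0.65 on arrays 59 to 62 (0.0377). Median centring, quantile normalization, leaving out shared probe sets and rank products did not give a call. Without any 1 array it was 0.54 to 0.82 (adjusted p 0.0622 to 0.222). *COR15A* stayed higher in *fbs1-1*, passed at -0.82 on arrays 59 to 62 and was between -0.76 and -0.45 without 1 array (adjusted p 0.0461 to 0.410). *COR15B* and *LTI30* did not pass under any alternative and kept their sign, except that *COR15B* was 0.32 between arrays 43 and 45 alone. They were between -0.25 and -0.03 and between -0.21 and -0.08 without 1 array. The shift of *COR15A* minus *COR15B* was between -0.54 and -0.40. The number of further targets that passed was 1 to 2 without 1 array and 0 of 2 among those named by the annotation, and that of dehydrins was 0 throughout. The further targets that passed are named only through the study's lists of called genes, so that their count is not independent evidence.

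With the replicate number as a block, *COR47* passed at 0.69 (adjusted p = 0.0104), and no other call of the cold marker genes, further targets or dehydrins changed. The shift of *COR15A* minus *COR15B* in these pairs was -0.46 (exact permutation p = 0.25, the smallest that 3 pairs can give). The deviations of same-numbered arrays correlated at 0.28, 0.09 and 0.14, and WT replicate 2 was closer to *fbs1-1* replicate 3 (0.11), so that the numbers were not taken as pairs. Over all probe sets limma called 358 higher in WT and 382 in *fbs1-1*, and 569 and 650 with the array numbers as a block. Among probe sets with 1 named gene, the mean percentiles of *COR47*, *COR15B* and *LTI30* rose to 97.4, 99.8 and 96.7, from 95.91, 99.52 and 95.04. The 3 arrays per genotype and the lack of detection calls limit values under 2.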
